A study of Mus musculus with 16 samples.

Results

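This comparison sets group 2 innate lymphoid cells (ILC2s) of the mediastinal lymph node, the node that drains the lung, against ILC2s of the lung itself, both 2 weeks after mice were first given IL-33 intranasally. The members are the 3 arrays labelled as node (mLN) ILC2s at week 2 and the 3 labelled as lung ILC2s at week 2, so 6 of the 16 arrays of the series, and 22180 genes were tested. The other arrays are naive lung ILC2s, lung ILC2s at day 4 and 4 months after IL-33, and node ILC2s at day 4; the day 4 groups have 3 arrays each and serve here as the earlier time of the same comparison. All treated groups used here received IL-33, and no untreated node group was analysed, so a response to IL-33 within the node was not measured. The strain, C57BL/6J, is given on the lung samples and not on the node samples. The sources used here give no age, sex, sort markers or number of animals per array. Every array is labelled as a biological replicate, but nothing says that the arrays came from separate animals, so p-values measure the spread between these arrays.

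ILC2s are lymphocytes without antigen receptors that live mainly in barrier tissues. In the lung they respond to IL-33, IL-25 and TSLP, which damaged epithelium releases, with the type 2 cytokines IL-5 and IL-13, and they can also make IL-4, IL-6, IL-9 and GM-CSF. The draining node receives lymph, antigen-bearing dendritic cells and migrating lymphocytes from the lung, and T and B cells meet antigen there. Chemokine receptors, adhesion molecules and the lipid receptor S1pr1 govern which lymphocytes stay in a tissue and which leave it.

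The levels are log2 signals of single-colour arrays that the authors normalized together, so a difference of 1 is a doubling of signal. Across all genes the week 2 arrays correlated at r = 0.9781 to 0.9862 within a group and at 0.9748 to 0.9771 between lung and node, and no column of values was identical to another. ILC2 markers were high on both sides. All 19 measured ILC2 markers had group means above a log2 signal of 3.73, the 40th percentile of all values, in lung and in node. Their mean per array was 9.08 to 9.18 in the lung and 8.86 to 9.01 in the node. The 12 markers of T cells averaged 5.17 to 5.32 on the lung arrays and 5.18 to 5.53 on the node arrays, and the 11 markers of B cells 3.84 to 3.89 and 3.58 to 3.68. Of the 12 T cell markers, 8 had differences above 0 and 4 below, with a median of 0.08, and 0 were called by limma (5 at an unadjusted p under 0.05). The chains of the T cell receptor complex differed in sign: Cd3g was at 0.82 ± 0.20 (SE; adjusted p = 0.0757), Cd3e at -0.26 ± 0.24 and Cd3d at -0.60 ± 0.44. Markers of macrophages, neutrophils and lung epithelium were among those with higher means on every lung array, as the plot of marker means shows. Blood endothelium, at 3.79 to 3.93 against 3.58 to 3.65, was another. Of single markers, limma called 0 of 18, 0 of 12, 1 of 13 and 0 of 10 in that order. The 18 macrophage markers averaged 4.05, 3.81 and 5.13 on lung arrays 1, 2 and 3, against 3.57 to 3.65 on the node arrays, so lung replicate 3 stood apart. The 12 neutrophil markers averaged 3.59, 3.38 and 4.20 against 3.08 to 3.13, and the 13 markers of lung epithelium 5.19, 4.72 and 4.22 against 3.70 to 3.95. The part these other cells have in the results was not tested, and in RNA of whole samples a lower share of cells that express a gene and less RNA per cell cannot be told apart.

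**Figure D1:**
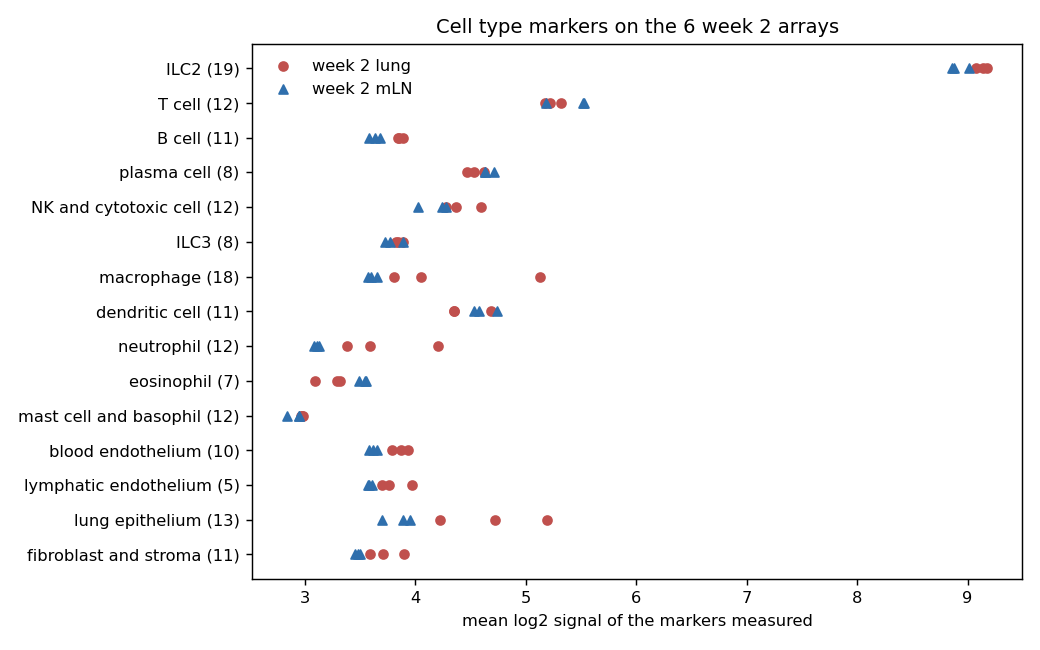
Mean log2 signal of the measured markers of each cell type on each week 2 array, with lung arrays as circles and node arrays as triangles and the number of markers in brackets. Red blood cells, with 2 measured markers, are not shown. ILC2 markers were high on all 6 arrays, and lung replicate 3 stood apart in macrophage markers at 5.13.

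Of 22180 genes, 173 differed between node and lung at week 2 (0.78%; limma, Benjamini-Hochberg adjusted p under 0.05), and 74 of them were higher in the node (0.334%) and 99 lower (0.446%). The mTOR inhibitor Deptor, inducible heat shock proteins, Il4 and the chemokine receptor Ccr3 were among the genes highest in the node relative to the lung, and Rgs16, Ccl3, the stem cell factor receptor Kit, Il2 and Tnf among the lowest. The 3 node arrays and the 3 lung arrays did not overlap for any of the 173 genes, beside 19.9% of all genes. A log2 difference of at least 1 was seen in 132 of the called genes, 53 higher and 79 lower, and of at least 2 in 15, 10 higher and 5 lower. The smallest difference called was 0.70, and the median over all genes was -0.01. At an unadjusted p under 0.05 there were 2119 genes. The count of calls differed between fits. With array weights, which weighted the 4 naive and 4-month arrays least, 692 genes were called, and with only the 6 week 2 arrays 310. Of the week 2 arrays, node replicate 3 had the lowest weight, 0.681, against 1.33 to 1.81 for the others. Without 1 week 2 array at a time the count was 88 (lung replicate 1), 91 (lung 2), 109 (lung 3), 90 (node 1), 94 (node 2) and 146 (node 3). Without the 3 lung arrays highest in macrophage markers (day 4 replicates 1 and 2, week 2 replicate 3) 74 genes were called, 32 higher and 42 lower, and 65 of these were among the 173.

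**Figure D2:**
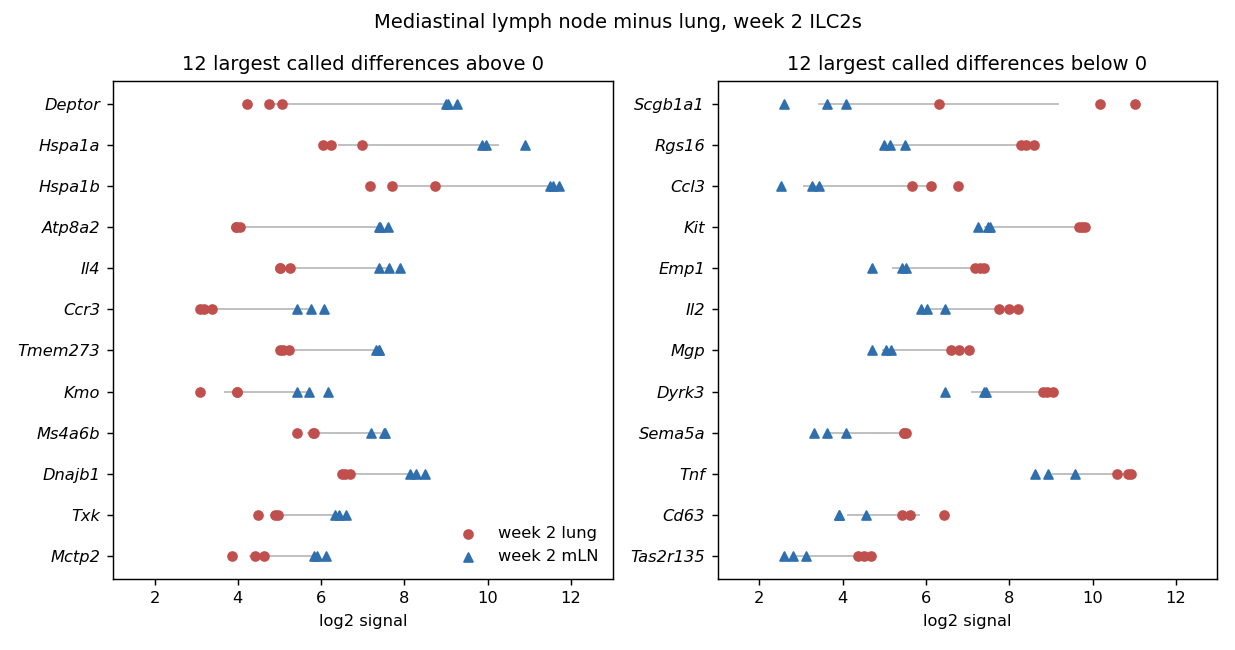
Log2 signal on each week 2 array for the 12 called genes with the largest difference in each direction, chosen among those without overlap between tissues and with predicted genes left out, with lung arrays as circles, node arrays as triangles and a line between the group means. Lung values of Scgb1a1, the widest spread shown, ranged from 6.31 to 11.02.

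Among cytokine genes, Il4 was higher in the node, and Il2, Tnf and Lif were higher in the lung. Of 27 measured cytokine and growth factor genes, 1 was higher in the node and 3 were lower (14.8% called, beside 0.78% of all genes). Their median difference was -0.21 beside -0.01 over all genes. Il4, the cytokine that drives type 2 differentiation of T cells and class switching of B cells, stood at 5.26, 5.01 and 5.02 on the lung arrays and at 7.62, 7.88 and 7.40 on the node arrays. Every node array was above every lung array, and the difference of 2.54 ± 0.18 (SE; limma adjusted p = 6.06e-07) is a 5.80-fold higher signal. Il2, a growth factor for lymphocytes, stood at 7.99, 8.21 and 7.76 in the lung and at 5.89, 6.46 and 6.03 in the node, a difference of -1.86 ± 0.24 (adjusted p = 0.000737). Tnf, which encodes the inflammatory cytokine TNF, stood at 10.86, 10.94 and 10.60 in the lung and 8.62, 8.93 and 9.59 in the node, and differed by -1.75 ± 0.32 (adjusted p = 0.0109). The node arrays varied more than the lung arrays, and node replicate 3 was closest to the lung. Lif, a cytokine of the IL-6 family, was lower on every node array, at 7.51, 7.93 and 8.04 against 9.03, 9.23 and 8.91 (difference -1.23 ± 0.22, adjusted p = 0.0103).

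Il5 and Il13, the cytokines by which ILC2s are best known, did not pass. Il13 stood at 11.01, 11.26 and 10.71 in the lung and 10.65, 10.83 and 10.88 in the node, and the groups overlapped (difference -0.21 ± 0.22, 95% confidence interval -0.67 to 0.25, adjusted p = 0.855). Il5, the growth factor of eosinophils, was lower on every node array, at 8.10, 8.0 and 7.89 against 8.45, 8.78 and 8.34, but its difference of -0.52 ± 0.19 did not pass (interval -0.93 to -0.11, adjusted p = 0.362). The interval of Il13 holds differences in both directions. Il6 was higher on all 3 node arrays, at 7.83, 8.04 and 7.62 against 6.53, 6.64 and 7.10, and its difference of 1.07 ± 0.31 had an adjusted p of 0.174; the limma fit with array weights called it (adjusted p = 0.013). Csf2, which encodes GM-CSF, overlapped between the tissues with a difference of -0.31 ± 0.19 (interval -0.71 to 0.10). Il9 was below the level of 3.73 in both, at 2.50, 2.74 and 2.14 in the lung and 2.55, 2.30 and 2.59 in the node, and Ltb, a subunit of lymphotoxin, had a difference of 0.52 ± 0.22 (adjusted p = 0.444).

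Promoters of the 3 cytokine genes with the largest called differences are shown because Il4 differed in the opposite direction to Il2 and Tnf. Each line gives the 200 bases before the gene's 5′-most listed start, from RefSeq on build GRCm38.p6, on the gene's own strand, and capitals mark each GGAAA or its reverse complement TTTCC, the core letters bound by NFAT and shared by other factors.
Il4 (chr11:53618666-53618865, minus strand): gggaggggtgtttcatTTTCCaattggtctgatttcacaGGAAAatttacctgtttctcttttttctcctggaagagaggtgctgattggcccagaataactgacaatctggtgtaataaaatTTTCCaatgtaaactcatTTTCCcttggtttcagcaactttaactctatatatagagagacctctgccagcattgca
Il2 (chr3:37125955-37126154, minus strand): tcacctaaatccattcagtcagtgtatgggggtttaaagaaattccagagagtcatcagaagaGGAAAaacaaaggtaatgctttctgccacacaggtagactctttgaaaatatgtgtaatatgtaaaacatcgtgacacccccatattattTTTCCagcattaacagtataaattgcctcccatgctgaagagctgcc
Tnf (chr17:35202008-35202207, minus strand): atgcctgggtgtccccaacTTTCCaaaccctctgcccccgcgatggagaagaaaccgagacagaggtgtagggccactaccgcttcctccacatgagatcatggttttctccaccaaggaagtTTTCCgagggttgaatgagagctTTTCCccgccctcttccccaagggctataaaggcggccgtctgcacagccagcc

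The Il4 window holds 4 matches, the Il2 window 2 and the Tnf window 3, on either strand. Over 250 bases before the start, 55.6% of 32851 promoters hold at least 1 match, so the letters are common. No match to the AP-1 letters TGANTCA lies within 250 bases before these 3 starts, and 6.75% of the promoters hold one. The matches describe letters only and bear on no factor.

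Among cytokine receptors, Kit differed most. Of 35 measured cytokine receptor genes, 1 was higher in the node and 2 were lower (8.57% called, beside 0.78% of all genes). The list's median was -0.22. Kit, the receptor for stem cell factor, stood at 9.76, 9.68 and 9.82 on the lung arrays and 7.26, 7.49 and 7.55 on the node arrays, a difference of -2.32 ± 0.20 (adjusted p = 1.06e-05) and a 5.0-fold higher signal in the lung. The arrays of a tissue varied far less than the gap between tissues. Ifngr1, a subunit of the interferon-gamma receptor, was also lower in the node, at 7.83, 7.96 and 8.26 against 9.15, 9.15 and 9.20 (difference -1.15 ± 0.18, adjusted p = 0.00352). Il17rb, which encodes a chain that binds IL-25, was higher on every node array, at 10.35, 10.32 and 10.50 against 9.60, 9.61 and 9.64 (difference 0.78 ± 0.16, adjusted p = 0.0242). The difference is among the smaller ones called, and the arrays of each tissue lay close together. Il7r, the receptor subunit for IL-7 and TSLP, differed by -0.33 ± 0.15 (adjusted p = 0.494) and Il2ra, the high-affinity IL-2 receptor subunit, by 0.06 ± 0.18 (adjusted p = 0.969), and neither passed.

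Inhibitory and costimulatory receptors differed in both directions. Of 30 measured genes of this list, 2 were higher in the node and 1 was lower (10% called, beside 0.78% of all genes). The list's median was -0.13. Cd160, an immunoglobulin-family receptor of lymphocytes, stood at 4.58, 4.32 and 4.75 in the lung and 6.12, 6.33 and 5.79 in the node (difference 1.53 ± 0.28, adjusted p = 0.0124). Klrg1, the inhibitory lectin-like receptor used to mark ILC2s, stood at 8.56, 8.64 and 8.15 in the lung and 9.38, 9.46 and 9.45 in the node (difference 0.98 ± 0.21, adjusted p = 0.0359). Lair1, an inhibitory receptor for collagen, was lower in the node, at 3.70, 3.38 and 3.45 against 5.01, 5.0 and 5.16 (difference -1.55 ± 0.18, adjusted p = 0.000232). The checkpoint receptor gene Pdcd1, which encodes PD-1, was lower on every node array, at 5.46, 5.48 and 5.77 against 6.86, 6.77 and 6.58, with a difference of -1.17 ± 0.28 that missed the threshold (adjusted p = 0.0742). Among 28 genes of the TNF superfamily, the receptor Tnfrsf26 passed, at 1.33 ± 0.26 (adjusted p = 0.0162), and the ligand Tnfsf8, which encodes CD30 ligand, was at -0.92 ± 0.21 (adjusted p = 0.0607). Pdcd1 and Tnfsf8 passed in the fit of the 12 day 4 and week 2 arrays, at adjusted p = 0.00457 and 0.00796. Icos, the costimulatory receptor, differed by -0.09 ± 0.21 (interval -0.54 to 0.36), and Ctla4 by 0.48 ± 0.35 (interval -0.27 to 1.22).

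Genes of migration differed at single receptors. Of 19 chemoattractant receptor genes, 1 was higher and 1 lower in the node, and of 15 genes of egress and lymphoid homing, 0 were higher and 1 was lower. The shares called were 10.5% and 6.67%, beside 0.78% of all genes. Ccr3, the receptor for eotaxins, had the largest difference of a chemokine receptor; it was listed among the eosinophil markers and not in these lists. It stood at 3.18, 3.10 and 3.38 in the lung, below the level of 3.73 used here for dim genes, and at 5.41, 5.75 and 6.08 in the node (difference 2.53 ± 0.36, adjusted p = 0.0015). Of the 7 eosinophil markers, 2 were above that level in the node, Ccr3 and Alox15, and 1 was called. In the node Epx, which encodes eosinophil peroxidase, stood at 2.84, 3.03 and 3.45, and Siglecf at 3.48, 3.52 and 3.43; Ear6, below the level in both tissues, was the other marker with every node array above the lung arrays (difference 0.42 ± 0.19, adjusted p = 0.486). Ccr8, a receptor of tissue lymphocytes, was lower in the node, at 8.87, 9.53 and 10.32 against 10.95, 11.01 and 10.92 (difference -1.39 ± 0.29, adjusted p = 0.0292), and Ccr4, a receptor of type 2 lymphocytes, was higher by 0.70 ± 0.16 (adjusted p = 0.0473). Cxcr4, the receptor for CXCL12, was lower in the node, at 7.44, 7.59 and 7.36 against 8.67, 8.85 and 8.86 (difference -1.33 ± 0.23, adjusted p = 0.00781). The egress receptor S1pr1 and its transcription factor Klf2 were higher on all 3 node arrays without passing, at 0.70 ± 0.20 (adjusted p = 0.145) and 0.83 ± 0.21 (adjusted p = 0.0933). With array weights both passed, at limma adjusted p = 0.0198 and 0.0088, and in the fit of 12 arrays S1pr1 did (0.0238) and Klf2 did not (0.0585). Of 19 genes of tissue retention and adhesion, 0 passed in either direction with limma (7 at an unadjusted p under 0.05); Itgae, the integrin chain CD103, had a difference of 0.64 ± 0.30 (adjusted p = 0.519) and Cd69, a retention marker, of -0.28 ± 0.28 (interval -0.88 to 0.32). Ccr7, which guides lymphocytes into nodes, differed by 0.36 ± 0.21 (interval -0.09 to 0.81).

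Among 18 chemokine ligand genes, 1 was higher in the node and 1 was lower (11.1% called, beside 0.78% of all genes). Ccl5, an attractant of T cells and other leukocytes, stood at 8.28, 8.40 and 8.31 in the lung and 9.74, 9.86 and 9.38 in the node (difference 1.33 ± 0.20, adjusted p = 0.00206). Ccl3, an inflammatory chemokine, stood at 5.66, 6.11 and 6.78 in the lung and 2.51, 3.44 and 3.27 in the node (difference -3.11 ± 0.56, adjusted p = 0.0107). Its highest lung value was on replicate 3, the array high in macrophage markers. Without that array the difference was -2.81 and the call was lost (limma adjusted p = 0.066). The call was also lost without node replicate 1. Without all 3 lung arrays highest in macrophage markers the difference was again -2.81. That fit leaves 1 array in the day 4 lung group, so this group's spread (7.31, 7.03 and 4.64) drops out of the shared estimate. With the mean of the macrophage markers as a covariate the difference was -2.13 (limma adjusted p = 0.0134).

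Among the called genes, Deptor had the largest difference above 0. Its product binds mTOR and inhibits both mTOR complexes. The lung arrays stood at 4.74, 5.05 and 4.21 and the node arrays at 8.99, 9.27 and 9.05, a difference of 4.44 ± 0.29 (adjusted p = 3.85e-07) or 21.6-fold. A second Deptor probe set gave 2.70, in the same direction. None of the other 20 measured genes of mTOR signalling and growth passed, and the list's median was 0.01. Slc7a5, the large neutral amino acid transporter that feeds mTOR, was lower in the node, at 7.29, 7.30 and 7.45 against 8.40, 8.32 and 8.43 (difference -1.04 ± 0.19, adjusted p = 0.0126). Atp8a2, a phospholipid flippase, stood at 3.95, 4.06 and 3.96 in the lung and 7.38, 7.60 and 7.42 in the node (difference 3.47 ± 0.17, adjusted p = 5.77e-09). The arrays of each tissue lay close together, and no value of one tissue came near the other. Kmo, the kynurenine 3-monooxygenase of tryptophan breakdown, was higher in the node by 2.08 ± 0.30 (adjusted p = 0.0015), and Txk, a Tec-family kinase of lymphocytes, by 1.66 ± 0.18 (adjusted p = 0.00018). Ms4a6b, a membrane protein of the MS4A family, was higher by 1.73 ± 0.18, Tmem273, a transmembrane protein, by 2.26 ± 0.41 and Mctp2, a calcium-binding C2-domain protein, by 1.65 ± 0.26.

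Heat shock proteins formed the list with the largest share of calls among the functional lists, 26.7% beside 0.78% of all genes. Of 15 measured members 4 were higher in the node and 0 lower, with a median of 0.22. The 4 were Hspa1a and Hspa1b, which encode the stress-inducible HSP70, Hsph1, an HSP110 chaperone, and Dnajb1, an HSP40 co-chaperone. Hspa1b stood at 7.70, 7.17 and 8.73 in the lung and 11.56, 11.49 and 11.71 in the node (difference 3.72 ± 0.33, adjusted p = 1.5e-05). Hspa1a stood at 6.25, 6.06 and 6.99 and 9.95, 9.87 and 10.89 (difference 3.81 ± 0.49, adjusted p = 0.000741), but the genes are near-identical copies, and how the probe sets divide their signal is uncertain. Hsph1 stood at 6.45, 6.50 and 6.11 and 8.05, 7.77 and 8.03 (difference 1.59 ± 0.21, adjusted p = 0.000902). Dnajb1 stood at 6.50, 6.58 and 6.70 and 8.29, 8.49 and 8.15 (difference 1.71 ± 0.29, adjusted p = 0.00604), so all 4 were separated on every array. The constitutive HSP70 gene Hspa8 differed by 0.11 ± 0.14, Hsp90aa1 by 0.21 ± 0.25 and the endoplasmic reticulum chaperone Hspa5 by -0.01 ± 0.18, and none of these passed.

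The promoters of 3 of these genes are shown because the genes were called in the same direction. The lines give 200 bases before the 5′-most listed start on the gene's strand (RefSeq, GRCm38.p6), and capitals mark the heat shock element pair GAANNTTC or TTCNNGAA.
Hspa1b (chr17:34959239-34959438, minus strand): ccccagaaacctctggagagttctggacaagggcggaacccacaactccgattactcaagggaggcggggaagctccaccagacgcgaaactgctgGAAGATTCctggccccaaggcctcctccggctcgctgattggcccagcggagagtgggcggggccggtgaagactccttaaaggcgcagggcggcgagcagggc
Hspa1a (chr17:34972157-34972356, minus strand): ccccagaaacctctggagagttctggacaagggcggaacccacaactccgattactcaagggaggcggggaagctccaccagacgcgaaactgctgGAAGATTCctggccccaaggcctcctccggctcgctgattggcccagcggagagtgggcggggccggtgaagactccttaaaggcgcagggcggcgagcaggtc
Hsph1 (chr5:149636337-149636536, minus strand): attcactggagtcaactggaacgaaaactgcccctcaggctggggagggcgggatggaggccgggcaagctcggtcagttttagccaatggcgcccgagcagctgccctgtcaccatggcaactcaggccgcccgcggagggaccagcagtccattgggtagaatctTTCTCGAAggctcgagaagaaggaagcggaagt

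The Hspa1a and Hspa1b windows are identical at 199 of 200 positions and hold 1 match each, 104 bases before the start, and the Hsph1 window holds 1 match, 33 bases before it. Dnajb1 has none within 250 bases before its 5′-most start. Of 32851 promoters, 12.8% hold such a match in that stretch.

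Among the called genes, Rgs16 had the largest difference below 0 after Scgb1a1. It encodes a brake on G protein signalling from chemokine and other receptors. The lung arrays stood at 8.59, 8.40 and 8.28 and the node arrays at 5.14, 5.50 and 4.99 (difference -3.21 ± 0.42, adjusted p = 0.000786). It was on the lists of immediate early genes, where 1 of 38 members was lower and 0 higher, and of G protein signalling, where 1 of 23 was higher and 2 lower. The shares called were 2.63% and 13%, beside 0.78% of all genes. The other 2 of the second list were P2rx7, a receptor for extracellular ATP, at 1.19 ± 0.15 (adjusted p = 0.000714), and Adgrg3, an adhesion receptor, at -1.35 ± 0.18 (adjusted p = 0.000902). The early genes Fos and Nr4a1 had differences of -0.30 ± 0.30 (adjusted p = 0.842) and -1.31 ± 0.45 (adjusted p = 0.298). Nr4a1 stood at 11.23, 11.08 and 11.02 in the lung and 9.53, 9.68 and 10.21 in the node, and every node array was below every lung array. Of 21 NF-kB subunits and feedback genes 0 passed with limma, and 0 had an unadjusted p under 0.05; Nfkbia, the inhibitor IkB-alpha, differed by 0.05 ± 0.19 (interval -0.36 to 0.45).

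Receptors for neuropeptides and hormones gave calls in both directions, 2 higher and 2 lower of 22 measured (18.2% called, beside 0.78% of all genes). Nmur1, the neuromedin U receptor of ILC2s, stood at 8.25, 8.12 and 8.08 in the lung and 9.14, 9.0 and 9.14 in the node (difference 0.94 ± 0.21, adjusted p = 0.0474). Ret, the signalling receptor for glial cell line-derived ligands, stood at 3.74, 4.61 and 4.18 and 5.47, 5.74 and 6.03 (difference 1.57 ± 0.25, adjusted p = 0.00448). Calcrl, a subunit of the receptors for CGRP and adrenomedullin, was lower in the node, at 8.01, 8.15 and 8.35 against 9.28, 9.41 and 9.33 (difference -1.17 ± 0.15, adjusted p = 0.000864). Its partner Ramp3 was lower on every node array, with a difference of -0.95 ± 0.25 that did not pass (adjusted p = 0.106), and Ramp1 differed by 0.07 ± 0.19. Asic3, an acid-sensing ion channel, was lower in the node, at 3.86, 4.25 and 4.0 against 5.47, 5.44 and 5.54 (difference -1.45 ± 0.21, adjusted p = 0.00195).

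Most interferon-stimulated genes had values above 0, and few passed singly. Of 31 measured, 2 were called higher and 0 lower, 28 had differences above 0, and the median was 0.55 beside -0.01 over all genes. The 3 node arrays lay above the 3 lung arrays for 18 of the 31 (58.1%), beside 9.97% of all genes. The called genes were Psmb9, an immunoproteasome subunit, at 7.85, 7.94 and 7.70 in the lung and 9.15, 9.27 and 8.77 in the node (difference 1.23 ± 0.19, adjusted p = 0.00298), and Rtp4 at 1.54 ± 0.33 (adjusted p = 0.0338). Below the threshold stood the GTPase Igtp at 1.30 ± 0.33 (adjusted p = 0.0949), Ifit1 at 1.18 ± 0.35 (adjusted p = 0.188), Isg15 at 0.99 ± 0.31 (adjusted p = 0.228) and Psmb8 at 0.65 ± 0.16 (adjusted p = 0.0902). At day 4 the same list had 0 calls in either direction and a median of -0.29. Of 12 class II antigen presentation genes 1 was called higher, H2-Oa, which encodes a chain of the peptide exchange regulator DO, at 7.05, 7.43 and 7.28 in the lung and 8.54, 8.88 and 8.62 in the node (difference 1.42 ± 0.20, adjusted p = 0.00146).

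Housekeeping lists also had medians above 0, with no calls. Cytosolic ribosomal protein genes had differences above 0 in 23 of 25 cases and a median of 0.29, and the node arrays lay above the lung arrays for 15 of them (60%, beside 9.97% of all genes). Oxidative phosphorylation genes were above 0 in 24 of 26 cases with a median of 0.22, and proteasome genes in 19 of 22 with a median of 0.19; the node arrays lay above the lung arrays for 5 (19.2%) and 5 (22.7%) of them. The mean of the oxidative phosphorylation genes on node replicate 3, 7.56, lay within the lung range of 7.47 to 7.63. In the 3 lists 0 genes passed with limma, against 8, 4 and 4 at an unadjusted p under 0.05. With each array's median centred the medians were 0.33, 0.26 and 0.23, and with quantile normalization repeated 0.22, 0.17 and 0.18.

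In the Notch pathway 2 of 18 measured genes were higher in the node and 0 lower (11.1% called, beside 0.78% of all genes). Hes1, a transcriptional repressor induced by Notch, stood at 7.23, 7.54 and 7.29 in the lung and 8.92, 9.11 and 8.28 in the node (difference 1.42 ± 0.22, adjusted p = 0.00363). Dtx1, a ubiquitin ligase of the pathway, stood at 4.48, 4.40 and 4.62 and 5.82, 5.56 and 5.91 (difference 1.27 ± 0.17, adjusted p = 0.000864), and its second probe set gave 0.87. The receptor Notch1 differed by 0.24 ± 0.19, the ligand Jag1 by 0.38 ± 0.23 and the DNA-binding partner Rbpj by -0.45 ± 0.15, and none passed. Of 41 lymphoid transcription factors, 1 was lower and 0 higher: Bach2, a repressor that restrains effector programmes, at 5.05, 4.71 and 5.30 in the node against 6.12, 6.07 and 6.44 in the lung (difference -1.19 ± 0.24, adjusted p = 0.0249). Gata3, the lineage factor of ILC2s, was lower on every node array, at 8.87, 8.94 and 9.32 against 9.56, 9.69 and 9.53, with a difference of -0.55 ± 0.19 that did not pass (interval -0.96 to -0.14, adjusted p = 0.314). The limma fit with array weights called Gata3 (adjusted p = 0.0462). That fit gave node replicate 3, the node array closest to the lung for Gata3, the lowest weight of the week 2 arrays. Rora, a second factor of the lineage, differed by -0.12 ± 0.18 (interval -0.50 to 0.25), and Pparg, a lipid-sensing factor, by -0.26 ± 0.23 (interval -0.74 to 0.21). Thy1 and Arg1, which are common ILC2 markers, differed by -0.49 ± 0.22 and -0.22 ± 0.18 and did not pass (adjusted p = 0.496 and 0.79).

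**Figure D3:**
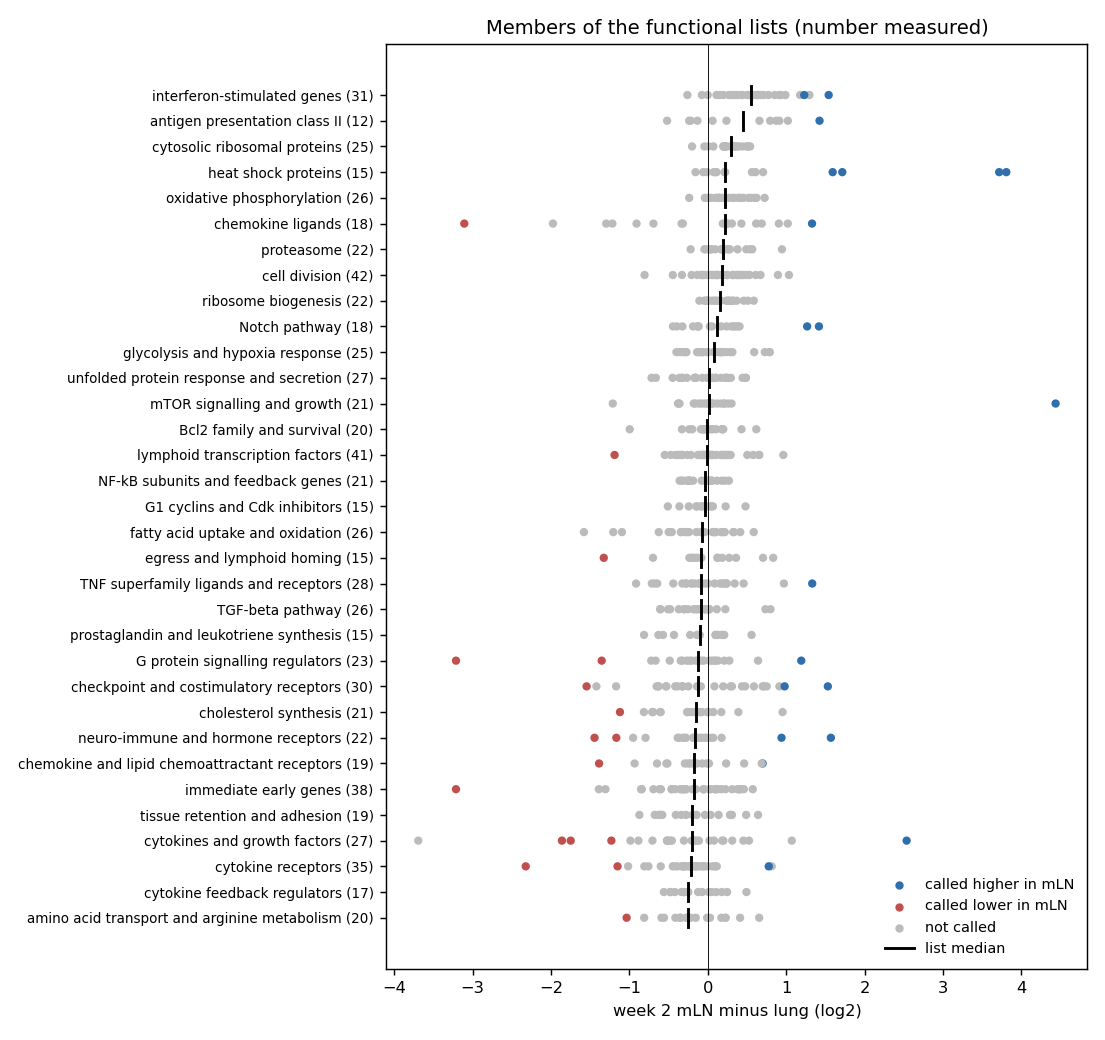
Week 2 difference (mLN minus lung, log2) of every measured member of the 33 functional lists, 1 point per gene, with the list's median as a bar and the number measured in brackets. Points called higher in the node are blue and those called lower red; interferon-stimulated genes have the highest median, 0.55, and heat shock proteins hold 4 calls above 0.

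Of the metabolic lists, 1 of 21 cholesterol synthesis genes was lower, Hmgcs1, an early enzyme of the pathway, at -1.12 ± 0.21 (adjusted p = 0.0116), and 1 of 20 genes of amino acid transport and arginine metabolism, the Slc7a5 described above. With limma, 0 passed among 25 genes of glycolysis and hypoxia (4 at an unadjusted p under 0.05), 26 of fatty acid uptake and oxidation (4), 27 of the unfolded protein response (3) and 15 of prostaglandin and leukotriene synthesis (3). There were also 0 calls among 26 genes of the TGF-beta pathway (5), 20 of the Bcl2 family (2), 17 cytokine feedback regulators (4), 15 G1 cyclins and Cdk inhibitors (2) and 22 genes of ribosome biogenesis (2).

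The largest differences below 0 included markers of other cells, most of which did not pass. Called lower in the node were 1 of 13 markers of lung epithelium, 0 of 18 of macrophages and 0 of 12 of neutrophils. Scgb1a1, the secretoglobin of club cells in the airway lining, stood at 11.02, 10.17 and 6.31 in the lung and 3.61, 4.08 and 2.60 in the node (difference -5.74 ± 1.19, adjusted p = 0.028). Its lung arrays varied widely, and the lowest was replicate 3. Scgb3a2, another secretoglobin, stood at 7.95, 4.91 and 2.52 in the lung, while the surfactant gene Sftpc stood at 4.44, 3.81 and 4.54 there and 4.21, 3.99 and 3.75 in the node. Chil3 and Lyz2, genes of macrophages, were highest on lung replicate 3, at 5.88, 5.52 and 10.61 and 7.06, 5.66 and 9.76 on lung replicates 1 to 3, and the neutrophil gene S100a8 stood at 4.71, 4.77 and 7.93. Their differences of -3.57 ± 1.03, -2.49 ± 1.0 and -3.41 ± 1.18 did not pass (adjusted p = 0.165, 0.406 and 0.302). Retnla, a secreted protein of type 2 inflammation that macrophages and epithelium also make, stood at 8.08, 6.85 and 6.47 in the lung and 3.67, 3.44 and 3.20 in the node, and its difference of -3.69 ± 0.87 did not pass (adjusted p = 0.0624). Lyve1, a marker of lymphatic endothelium that some macrophages share, was lower in the node (difference -1.08 ± 0.21, adjusted p = 0.015), with 0 calls among the other 4 measured markers of that endothelium. Mgp, a matrix protein, stood at 6.79, 7.03 and 6.59 in the lung and 5.04, 5.16 and 4.70 in the node (difference -1.84 ± 0.26, adjusted p = 0.0015). Cd63, a tetraspanin of lysosomes and granules, stood at 5.43, 5.61 and 6.43 in the lung, again highest on replicate 3, and at 3.92, 3.91 and 4.57 in the node (difference -1.69 ± 0.31, adjusted p = 0.0107). The remaining genes among the 12 largest called differences below 0 were Emp1, an epithelial membrane protein, at -2.07 ± 0.24, Sema5a, a semaphorin, at -1.83 ± 0.20, the kinase gene Dyrk3 at -1.83 ± 0.38 and the taste receptor gene Tas2r135 at -1.68 ± 0.29. Mgp, Cd63 and these genes were on no marker list. Ly75, the endocytic receptor DEC-205 of dendritic cells, was the dendritic cell marker called, higher in the node by 0.87 ± 0.19 (adjusted p = 0.0409), with 0 calls among the other 10.

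Cell division genes set week 2 apart from day 4. At week 2, 0 of 42 measured division genes passed with limma (8 at an unadjusted p under 0.05), with a median difference of 0.18. At day 4 the same comparison gave 517 calls of 22180 (2.33%), 217 higher (0.978%) and 300 lower (1.35%), and 29 of the 42 division genes were higher in the node and 0 lower, with a median of 1.45. Mki67, a marker of dividing cells, stood at 5.90, 5.96 and 5.42 in the lung and 6.20, 6.16 and 6.13 in the node at week 2 (difference 0.40 ± 0.22, adjusted p = 0.604), against 8.34, 7.84 and 7.97 and 9.26, 9.76 and 9.54 at day 4 (difference 1.47, adjusted p = 0.000793). Ccna2, cyclin A2, stood at 4.18, 4.37 and 4.02 and 4.41, 4.18 and 3.72 at week 2, with overlapping groups, and at 6.55, 6.02 and 5.96 in the lung and 8.34, 9.02 and 8.35 in the node at day 4. Between day 4 and week 2 Ccna2 fell in both tissues, by 1.99 in the lung (adjusted p = 0.000188) and by 4.47 in the node (adjusted p = 3.16e-08).

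The change of the node to lung difference between the times was tested directly, as the week 2 difference minus the day 4 difference, and 40 genes passed (0.18%), 15 upwards (0.0676%) and 25 downwards (0.113%). Of these, 39 were called at day 4 and 3 at week 2, and 38 had the larger absolute difference at day 4. Among the genes that changed downwards were 10 of the 42 division genes; Ccna2 changed by -2.48 ± 0.34 (adjusted p = 0.00423), Nuf2, a kinetochore protein, by -2.27 ± 0.35, the mitotic kinesins Kif23 and Kif14 by -2.21 ± 0.37 and -2.18 ± 0.29, and Hmmr, a spindle-associated protein, by -2.02 ± 0.39. Upwards changes included genes called lower in the node at day 4 and not called at week 2: the chemokine Ccl24 changed by 3.77 ± 0.64, the trefoil peptide gene Tff1 by 3.65 ± 0.35, Bex1 by 3.47 ± 0.51 and Ctla4 by 3.10 ± 0.50. Tff1 stood at 4.90, 4.76 and 4.52 in the lung and 4.80, 4.58 and 4.32 in the node at week 2, and at 9.20, 8.88 and 8.79 and 5.43, 5.06 and 4.92 at day 4. Asic3 changed by 2.77 ± 0.30 (adjusted p = 0.000754): its difference was -4.22 at day 4 and -1.45 at week 2, and it was called lower in the node at both times. Atp8a2 was higher in the node at both times, with the larger difference at week 2, 3.47 against 2.01 at day 4 (change 1.46 ± 0.24, adjusted p = 0.0149); the third gene called at week 2 was the predicted gene 2010310C07Rik, at -1.39 and 0.08. Of the 40 calls, 8 were also among the 13 left without the 3 lung arrays highest in macrophage markers; Atp8a2 then had an adjusted p of 0.243 and Asic3, Ccna2, Tff1 and Ctla4 each of 0.0415. Without 1 week 2 array at a time the calls numbered 19 (lung replicate 1), 11 (lung 2), 19 (lung 3), 23 (node 1), 25 (node 2) and 22 (node 3). Bex1, Kif14, Nuf2, Kif23, Hmmr and Ccl24 lost the call without the 3 lung arrays, at adjusted p of 0.103, 0.108, 0.0647, 0.319, 0.108 and 0.0647. Their changes in that fit were 3.46, -2.11, -2.27, -2.10, -2.18 and 2.43 in the same order, so Ccl24 was the one of these 6 that was over 1.5 times smaller.

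**Figure D4:**
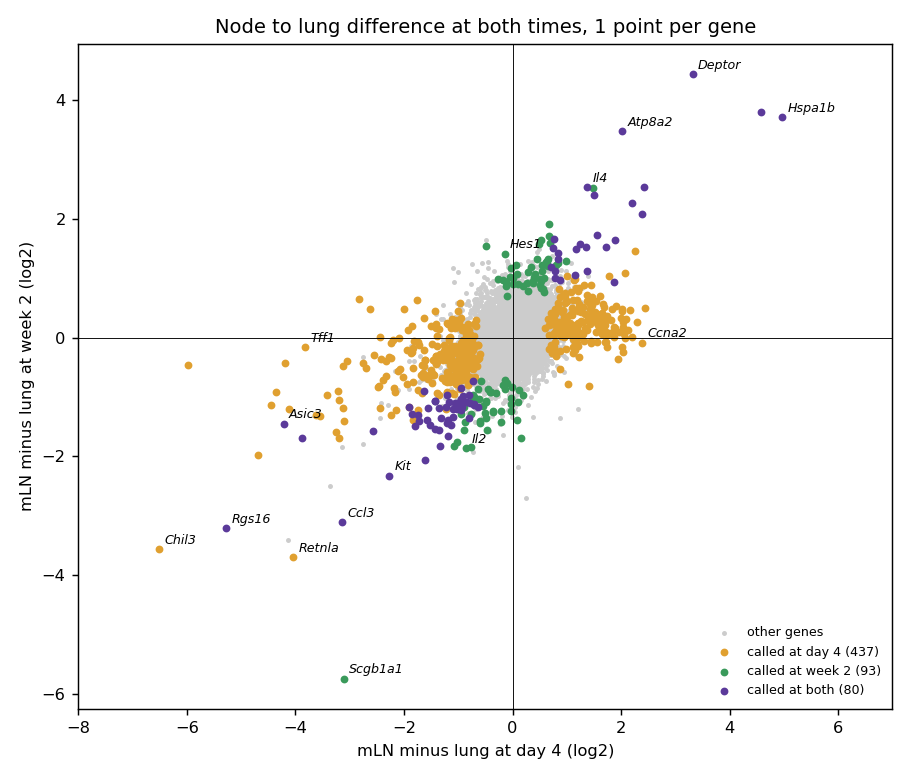
Difference mLN minus lung (log2) at day 4 on the x axis and at week 2 on the y axis, 1 point per gene, coloured by the time at which the gene was called. Of the called genes, 80 passed at both times, all on the same side of 0, 93 at week 2 and not at day 4, and 437 at day 4 and not at week 2.

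Many week 2 calls were also calls at day 4, on other arrays. Of the 173 week 2 calls, 80 were called at day 4 in the same direction (46.2% of the week 2 calls and 15.5% of the day 4 calls), 26 higher and 54 lower in the node, and 0 in the opposite direction. The 2 times share no arrays but share the estimate of spread, and across all 22180 genes, which are not independent, their differences correlated at Pearson's r = 0.375 and Spearman's rho = 0.229. Kit differed by -2.28 at day 4 and -2.32 at week 2, Ccr3 by 2.42 and 2.53, Kmo by 2.39 and 2.08, and Ccl3 by -3.14 and -3.11, all called at both times. Ccl3 stood at 7.31, 7.03 and 4.64 on day 4 lung replicates 1 to 3, whose macrophage markers averaged 5.84, 5.79 and 4.32. Without the 3 lung arrays highest in macrophage markers, its difference changed by -1.35 between the times, with only replicate 3 left in the day 4 lung group. Deptor differed by 3.32 and 4.44, and Hspa1b by 4.97 and 3.72. Il4 differed by 1.38 at day 4 and 2.54 at week 2; it was called both times, and the change between them had an adjusted p of 0.0781. Its means were 5.78 ± 0.17 (SD, n = 3) in the lung and 7.16 ± 0.07 in the node at day 4, and 5.10 ± 0.14 and 7.63 ± 0.24 at week 2. Rgs16 differed by -5.27 and -3.21, with an adjusted p of 0.269 for the change.

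Others were called at week 2 and not at day 4, without a change between the times that passed. Hes1 differed by -0.15 at day 4 (adjusted p = 0.952) and 1.42 at week 2, and the change had an adjusted p of 0.0625. Within the node it was higher at week 2 than at day 4 by 2.25 (adjusted p = 8.12e-06), from 6.40, 6.18 and 6.99 to 8.92, 9.11 and 8.28. Il2 differed by -0.86 at day 4 (adjusted p = 0.0795), and between the times it rose by 2.07 in the lung (adjusted p = 0.000134) and by 1.07 in the node (adjusted p = 0.0257). Lif rose by 1.75 in the lung (adjusted p = 0.000331), against 0.74 in the node (adjusted p = 0.144), and its change of difference had an adjusted p of 0.352. Dnajb1 and Hsph1 rose in the node between day 4 and week 2, by 1.42 (adjusted p = 0.0108) and 1.05 (adjusted p = 0.0116). Rtp4 fell in the lung, by 2.88 (adjusted p = 0.000128), and had a value of -0.85 in the node (adjusted p = 0.37). These contrasts over time share the week 2 arrays with the comparison of tissues.

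**Figure D5:**
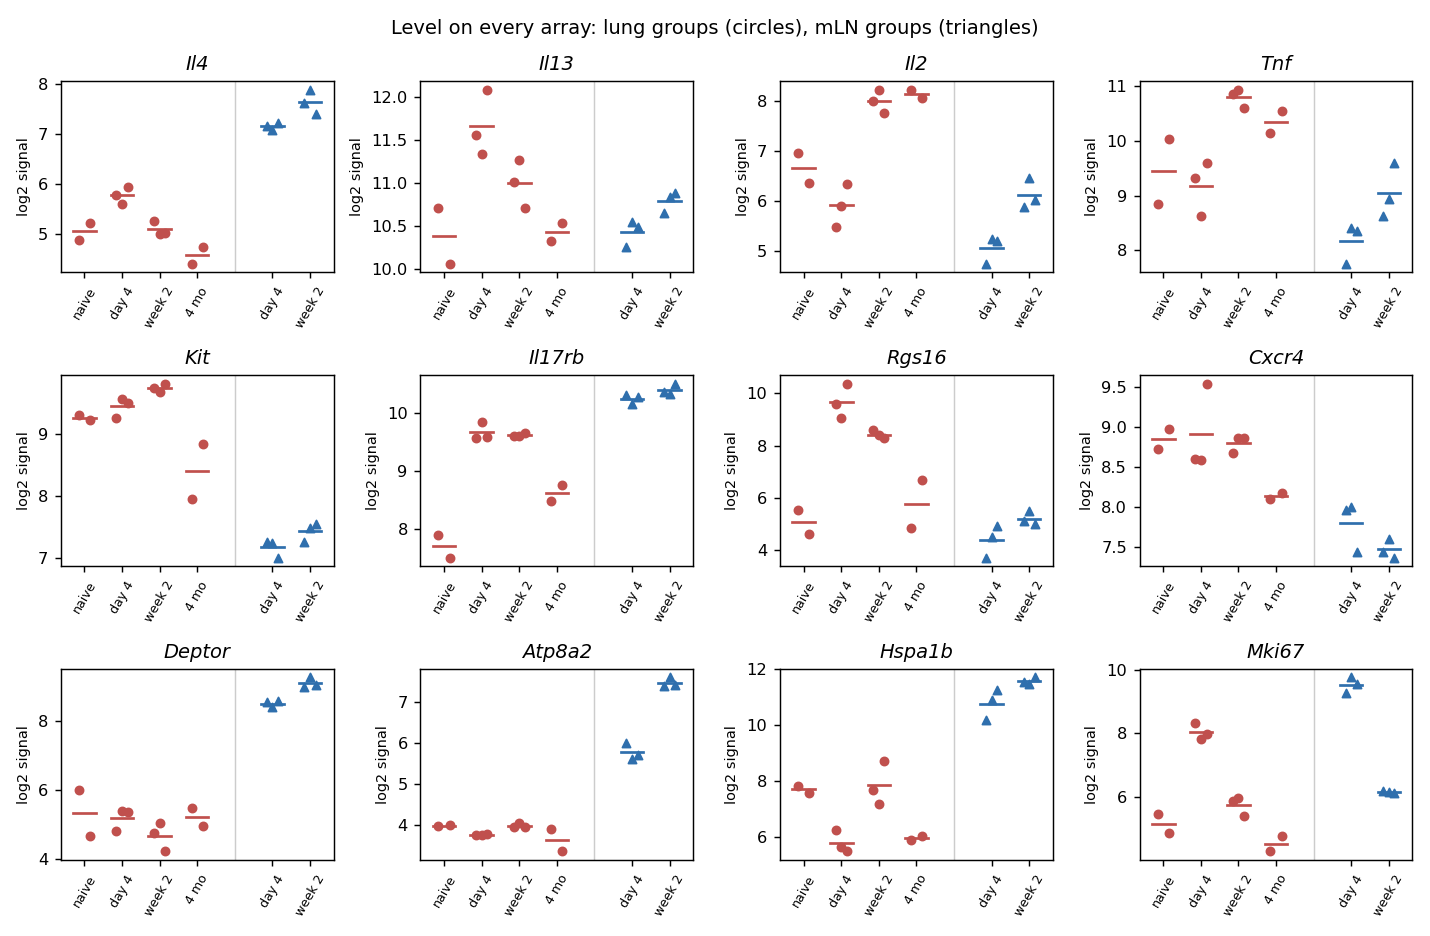
Log2 signal of 12 genes on every array of the series, lung groups as circles (naive, day 4, week 2, 4 months) and node groups as triangles (day 4, week 2), with a bar at each group mean. Deptor and Il4 were higher on all node arrays than on any lung array, Kit was lower, and Mki67 was highest at day 4 in both tissues.

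How many refits kept a call differed between genes. Leaving out a week 2 array also left fewer arrays in its group. Of the 173 calls, 52 passed in the same direction in all 17 refits (other scalings, filters, fits and left-out arrays), 24 higher and 28 lower. They include Deptor, Hspa1a, Hspa1b, Hsph1, Dnajb1, Atp8a2, Il4, Ccr3, Kmo, Txk, Dtx1, Ccl5, P2rx7 and H2-Oa above 0, and Kit, Rgs16, Il2, Cxcr4, Calcrl, Asic3, Lair1, Adgrg3, Emp1, Sema5a and Mgp below 0. Klrg1, Nmur1, Ly75, Il17rb, Ccr4 and Dyrk3 lost the call whichever of the 6 arrays was left out, with adjusted p of up to 0.203 for Klrg1, 0.181 for Nmur1, 0.18 for Ly75, 0.111 for Il17rb, 0.248 for Ccr4 and 0.13 for Dyrk3. Tnf lost it without lung replicates 1 or 2 or node replicates 1 or 2 (p up to 0.0771), Ccl3 without lung replicate 3 or node replicate 1 (up to 0.0749) and Lif without lung replicate 2 or node replicate 1 (up to 0.073). Scgb1a1 lost it without any array but lung replicate 3 (up to 0.176), and without that array the difference was -7.17. Ccr8, Slc7a5 and Bach2 lost it without any array but node replicate 3 (up to 0.147, 0.0737 and 0.166), Rtp4 without any but lung replicate 2 (up to 0.168) and Tnfrsf26 without any but lung replicate 3 (up to 0.103). Cd160 lost it without replicates 1 or 2 of either tissue (up to 0.085), Tmem273 and Hmgcs1 without lung replicates 2 or 3 or node replicates 1 or 2 (up to 0.0555 and 0.0771), and Cd63 without lung replicate 3 or node replicates 1 or 2 (up to 0.0743). Lyve1 lost it without lung or node replicate 2 (up to 0.102) and Tas2r135 without node replicate 2 (0.0548). Ret, Hes1, Psmb9 and Ifngr1 kept it without any single week 2 array and lost it without the 3 lung arrays highest in macrophage markers, at adjusted p of 0.0553, 0.0572, 0.0535 and 0.0505. Their differences in that fit, 1.57, 1.39, 1.17 and -1.13, were close to those over all arrays. No named call turned its direction in any refit. No named call was lost in the fit of the 12 day 4 and week 2 arrays, which leaves out the naive and 4-month arrays. There the limma adjusted p was 0.00368 for Klrg1, 0.014 for Nmur1, 0.021 for Ly75, 0.00699 for Il17rb, 0.0203 for Ccr4 and 0.000596 for Dyrk3.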

How the data were processed

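RNA of ILC2s was extracted with Trizol, labelled with a Nugen Encore kit and hybridised to Affymetrix arrays, per the labels' protocols. The deposited values are log2 signals; per the submitters' processing notes, the authors used RMA and Affymetrix Expression Console. Tool versions and the array's genome build: not given in the sources used here. Array medians of the values used ran from 3.98 to 4.27, so centring and a repeat of quantile normalization were tried. Scanner files were not used here, so a probe set's detection is not known, and the number of arrays limits the precision.

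Of 41345 probe sets, 23521 had 1 gene symbol, 1814 several and 16010 none in the platform annotation; the probe set with the highest mean was kept per gene, which gave 22180 genes. A model of group means over all 16 arrays (limma 3.58.1, R 4.3.3; 10 residual degrees of freedom) gave every difference, its SE and p, adjusted by Benjamini-Hochberg over all genes; adjusted p under 0.05 was called. The change between times is the interaction contrast of the same model. On simulated data 57% of changes of 1 and 99% of changes of 2 (log2) were recovered, and 1.89% of the calls were unchanged genes. The simulated noise was independent for each gene and array, without effects shared across an array, so recovery in the real arrays was not measured. Named are the 12 largest calls in each direction without overlap between tissues (predicted genes left out), up to 4 called members of each list, the 5 largest interaction calls in each direction and 40 ILC2 genes set by name; other list members and markers were named after their values were seen. The members and lists were chosen with earlier results of these data known. Alternatives were other scalings, filters, sets of arrays, array weights, a replicate block, a macrophage covariate and leaving out arrays. Same-numbered lung and node arrays at week 2 correlated in their deviations at 0.0281, 0.012 and 0.0188, and 5 of 6 arrays correlated best with their own number. These values do not settle whether the numbers mark pairs. The main fit did not take the numbers as pairs, and the replicate block is the alternative that does. Figures were drawn with matplotlib 3.10.9. List members without a row in the table used were not analysed here.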

Additional observations from a re-analysis of the deposited data

Results flagged for a closer look

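The test of whether the node to lung difference itself differed between week 2 and day 4 passed for 40 genes (limma interaction contrast, adjusted p under 0.05). The change, week 2 minus day 4 on the log2 scale, was -2.48 for Ccna2, -2.27 for Nuf2, -2.21 for Kif23, -2.18 for Kif14 and -2.02 for Hmmr, all genes of cell division. It was 3.77 for the chemokine Ccl24, 3.65 for Tff1, 3.47 for Bex1, 3.10 for Ctla4 and 2.77 for Asic3. Of the 16 refits, Ccna2, Tff1 and Asic3 passed in all, and Hmmr in 5.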

How the results depend on the processing

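Of the 173 week 2 calls (74 higher, 99 lower in the node), 52 passed in all 17 refits. Array weights gave 692 calls (377 higher, 315 lower), the 6 week 2 arrays alone 310 (161, 149), the 12 day 4 and week 2 arrays 342 (175, 167) and no lung arrays high in macrophage markers 74 (32, 42); leaving out 1 week 2 array gave 88 to 146 (39 to 69 higher, 48 to 77 lower). Day 4 calls numbered 939 with array weights, 792 with 12 arrays, 130 with the macrophage covariate and 201 without the 3 lung arrays. Interaction calls numbered 205, 102, 16 and 13 in the same order, 25 with quantile normalization repeated, and 11 to 25 leaving out 1 week 2 array. With the replicate number as a block, 12 arrays gave 381 week 2 calls (201 higher, 180 lower) and 80 interaction calls; the arrays share only a number, and 5 of 6 week 2 arrays correlated best with their own number. The causes were not tested. Signs turned only for values that did not pass: Il2ra was -0.00464 with weights and -0.070 with the covariate, Nfkbia -0.071 and Ccl24 0.33 with the covariate, Il9 -0.14 without the 3 lung arrays, and Ccna2 0.0010 with weights. Leaving out 1 array gave Il2ra -0.069 to 0.14, Il9 -0.14 to 0.16, Ccna2 -0.23 to 0.11 and Icos -0.16 to 0.015. The number of arrays, 3 a group, limits small differences; signal over background is not known.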

Other observations

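Genes of the cytoskeleton and membrane were among the week 2 calls outside the lists; they were chosen after their values were seen. Lower in the node were the annexins Anxa1 (-1.42 ± 0.23) and Anxa2 (-1.42 ± 0.21), the lamin gene Lmna (-1.17 ± 0.20), the cytolinker gene Plec (-1.12 ± 0.15), the intermediate filament gene Vim (-0.86 ± 0.15), Ahnak (-0.85 ± 0.18) and the galectin gene Lgals1 (-0.80 ± 0.17), as log2 differences with their SE. The adhesion molecule gene Alcam was also lower, at -1.44 ± 0.18, as was Tph1, the first enzyme of serotonin synthesis outside neurons, at -1.56 ± 0.22. Higher in the node were Gimap4, a GTPase of lymphocytes, at 1.52 ± 0.22, the exchange factor gene Rasgrp2 at 1.49 ± 0.30, the unconventional myosin gene Myo1f at 1.05 ± 0.16, and the signalling adaptors Pik3ap1 at 1.58 ± 0.25 and Dapp1 at 1.32 ± 0.20. Of these, Anxa1, Anxa2, Plec, Alcam, Tph1, Gimap4, Myo1f and Pik3ap1 passed in all 17 refits, Dapp1 and Lmna in 16, Vim in 13, Rasgrp2 in 12, Ahnak in 9 and Lgals1 in 8.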
